A study of Mus musculus with 24 samples.

Results

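The genes followed here carry arginine through the macrophage: *Slc7a2*, *Nos2*, *Gch1*, *Ass1*, *Asl*, *Arg1*, *Arg2* and *Odc1*. They were chosen by symbol, with earlier results of these data known. All 8 were found once each among the 56691 genes of the RAW264.7 table and again among the 56691 of the BMDM table. Their levels are described over the 8 groups of the study.

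Arginine enters macrophages through cationic amino acid transporters, of which *Slc7a2* encodes the form that inflammatory stimuli are known to induce. Inducible nitric oxide synthase (*Nos2*) turns arginine into nitric oxide and citrulline, and it works only with tetrahydrobiopterin, a cofactor whose synthesis from GTP starts at GTP cyclohydrolase (*Gch1*). Argininosuccinate synthase (*Ass1*) and argininosuccinate lyase (*Asl*) rebuild arginine from citrulline. The arginases compete for the same substrate and split it into urea and ornithine, *Arg1* in the cytosol and *Arg2* in mitochondria. Ornithine decarboxylase (*Odc1*) then makes putrescine, the entry to the polyamines. In mouse macrophages high *Nos2* is the textbook mark of stimulation with bacterial products and high *Arg1* that of stimulation with IL-4.

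RNA-seq was performed on RAW264.7 cells, a mouse macrophage-like leukaemia line, and on bone marrow-derived macrophages (BMDMs), with 3 libraries in each of 8 groups. In both cell types the groups were wild type with PBS, wild type with LPS (100 ng/mL, over 4 h), *Olfml3* knockout with PBS and *Olfml3* knockout with LPS. LPS is the lipopolysaccharide of Gram-negative bacteria. The knockout RAW264.7 cells came from lentiviral CRISPR-Cas9 targeting followed by isolation of single-cell clones, so that a line stands for 1 clone. BMDMs were grown from the marrow of 8-week-old male C57BL/6 mice, wild type or *Olfml3*-/-, in medium with supernatant of L929 cells, and nothing in the sources says how many mice gave the 3 libraries of a group. Groups follow the sample titles, because the genotype tag contradicts the title in 12 of the 24 samples. Levels are FPKM, which divides a gene's counts by its length and by the library total, so that levels of different genes can be set side by side. A gene was called in a comparison where limma gave a Benjamini-Hochberg adjusted p under 0.05 over all genes tested and the fold on log2(FPKM + 0.1) was at least 1.5.

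The targeted gene was read first. *Olfml3* stood at 0.61, 0.53 and 0.65 FPKM in wild-type BMDMs with PBS and at 0.03, 0.01 and 0.01 in knockout BMDMs. With LPS the BMDM values were 0.24, 0.25 and 0.25 against 0.01, 0 and 0. In RAW264.7 cells it went the other way, with 0.19, 0.15 and 0.15 FPKM in wild type against 0.65, 1.01 and 1.19 in the libraries labelled knockout with PBS. With LPS these were 0.13, 0.13 and 0.29 against 18.9, 18.8 and 18.3. The RAW264.7 samples are therefore named by their label below. These levels do not show whether the coding sequence was changed.

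Depth was 11638273 to 16478616 counts a library for RAW264.7 and 17121240 to 22873094 for BMDMs. Among the PBS libraries of RAW264.7 labelled knockout, replicate 1 stood apart: its mean correlation was 0.964 with its own group and 0.973 with wild type with PBS, and the counts of called members that use it are given without it too. All 7 macrophage markers looked up were at 1 FPKM or more on average in BMDMs and 6 of 7 in RAW264.7, where *Mertk* was at 0. Their summed level was 2729 to 2945 FPKM in wild-type RAW264.7 and 829 to 1286 in the libraries labelled knockout, largely from *Lyz2* (2039 to 2264 against 259 to 433). The other markers were mixed there with PBS. *Csf1r* was higher in those labelled knockout (254 to 268 in wild type against 314 to 354.5) and *Fcgr1* overlapped, while *Adgre1*, *Itgam* and *Cd68* were lower. With LPS *Csf1r*, *Fcgr1*, *Adgre1*, *Itgam* and *Cd68* were all lower in every RAW264.7 library labelled knockout than in any wild-type library. In BMDMs the sum was 14693 to 15115 in wild type and 16474 to 17664 in knockout with PBS, and 11847 to 12061 and 12409.5 to 12686 with LPS. With PBS the higher sum in knockout came largely from *Lyz2* (12120 to 12480 against 14176 to 15323), and *Csf1r* was higher too. *Fcgr1* (111 to 129 against 51 to 54.9), *Adgre1*, *Itgam*, *Cd68* and *Mertk* were lower with PBS in every knockout library than in any wild-type library. The part of these marker differences in the results below was not tested, and in bulk RNA fewer cells of a type and less RNA per cell cannot be told apart. Summed markers of T and NK, B and mast cells stayed at or below 0.33 FPKM, of dendritic cells at or below 1.08 and of fibroblasts at or below 1.44 in all libraries. Neutrophil markers reached 7.99 in BMDMs, with *Ly6g* at 0, and 0.2 in RAW264.7.

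With LPS the order of levels set RAW264.7 and BMDMs apart, while with PBS *Odc1*, *Asl* and *Gch1* led in that order in both. *Odc1* led in all 4 RAW264.7 groups, from 62.9 ± 5.41 FPKM (SD, n = 3) in the libraries labelled knockout with PBS to 690 ± 20.6 in wild type with LPS, where it took place 63 of 21009 genes with a value. *Odc1* also led in BMDMs with PBS, at 36.9 ± 1.01 in wild type and 36.5 ± 2.28 in knockout. With LPS, *Nos2* led in BMDMs, at 202 ± 6.81 and 216 ± 1.81 FPKM, followed by *Odc1* and *Slc7a2* in wild type and by *Slc7a2* and *Odc1* in knockout. In wild-type RAW264.7 with LPS the order was *Odc1*, *Nos2*, *Gch1*, *Asl*, *Arg2*, *Ass1*, *Arg1* and *Slc7a2*, and only the libraries of *Asl* and *Arg2* overlapped among neighbours. In those labelled knockout with LPS, *Gch1* stood above *Nos2*, whose libraries overlapped with those of *Asl*, and *Ass1* came last at 0. With PBS the lowest genes overlapped: *Ass1*, *Arg1*, *Nos2* and *Slc7a2* in wild-type RAW264.7, *Arg1*, *Nos2*, *Ass1* and *Slc7a2* in those labelled knockout, and *Arg2*, *Arg1* and *Nos2* in knockout BMDMs. Knockout BMDMs with PBS also had overlapping *Slc7a2* and *Ass1*.

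**Figure D1:**
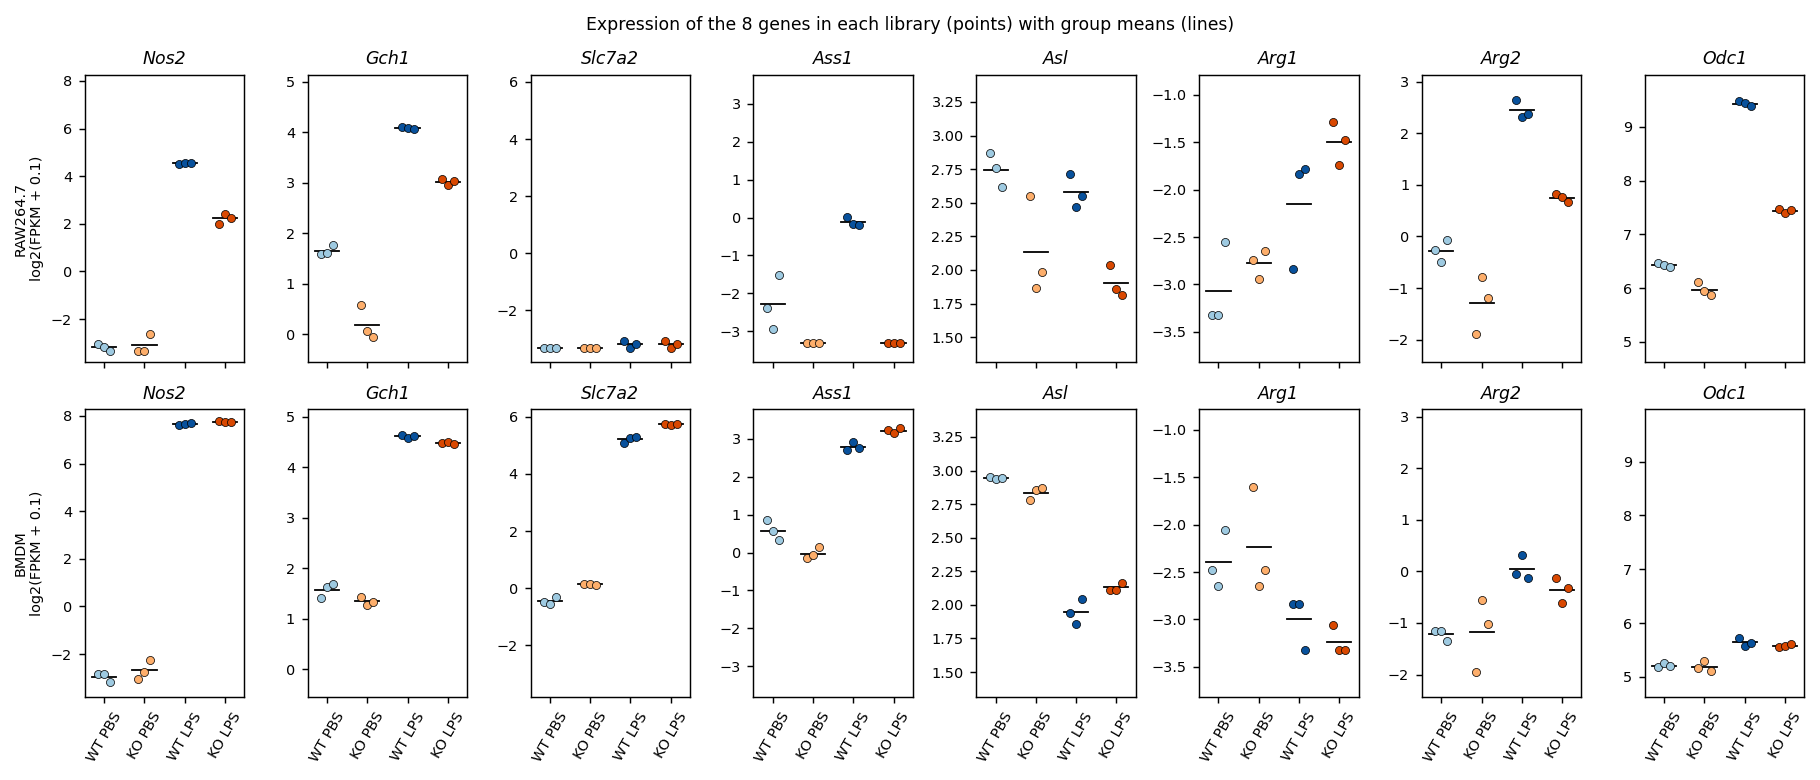
FPKM of each gene in each library (points, log axis) by cell type, genotype and treatment, 3 libraries per group. *Nos2* sits near 0 with PBS and between 195.6 and 218.4 FPKM in BMDMs with LPS, against 22.7 to 23.7 in wild-type RAW264.7 and 3.91 to 5.28 in RAW264.7 labelled knockout.

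The comparison of LPS with PBS asks how the stimulus moved these genes. In wild-type RAW264.7, *Nos2*, *Gch1*, *Ass1*, *Arg2* and *Odc1* rose, 5 of 8, where 5.8% of 26740 genes were called higher, 12.5% lower and 18.3% in either direction. In those labelled knockout, *Nos2*, *Gch1*, *Arg1*, *Arg2* and *Odc1* rose, again 5 of 8, against 7.45% of all genes higher, 14.6% lower and 22.1% in either direction. Without the library that stood apart the same 5 were called in those labelled knockout, at 5.21 for *Nos2*, 3.02 for *Gch1*, 1.29 for *Arg1*, 1.74 for *Arg2* and 1.53 for *Odc1*, against 6.80% of all genes higher and 14.96% lower. The median log2 fold change over the 8 genes was 2.31 and 1.37, beside -0.05 and -0.07 over all genes tested. Called genes split 31.7% and 33.8% to the higher side, and 49.7% and 51.7% with median-ratio scaling, which centres the libraries on the typical gene. On the deposited scale the median gene at 1 FPKM or more stood at -0.22 in both.

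In BMDMs, *Nos2*, *Slc7a2*, *Gch1*, *Ass1* and *Arg2* rose with LPS in both genotypes. *Asl* fell in both and *Arg1* in knockout. These were 5 higher and 1 lower of 8 in wild type, where 7.94% of 26973 genes were called higher, 32.5% lower and 40.4% in either direction. They were 5 higher and 2 lower in knockout, where 8.02% were called higher, 30.9% lower and 38.9% in either direction. Medians over the 8 genes were 1.74 and 1.98, beside -0.30 and -0.28 over all genes tested. The median gene at 1 FPKM or more stood at -0.76 in wild type and -0.66 in knockout, and the share of calls to the higher side went from 19.6% and 20.6% to 47.9% and 46.8% with median-ratio scaling. Relative to that median *Asl* differed by -0.23 and -0.05, and with median-ratio scaling it was no longer called, while *Odc1* was (log2 fold change 1.24 and 1.08).

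**Figure D2:**
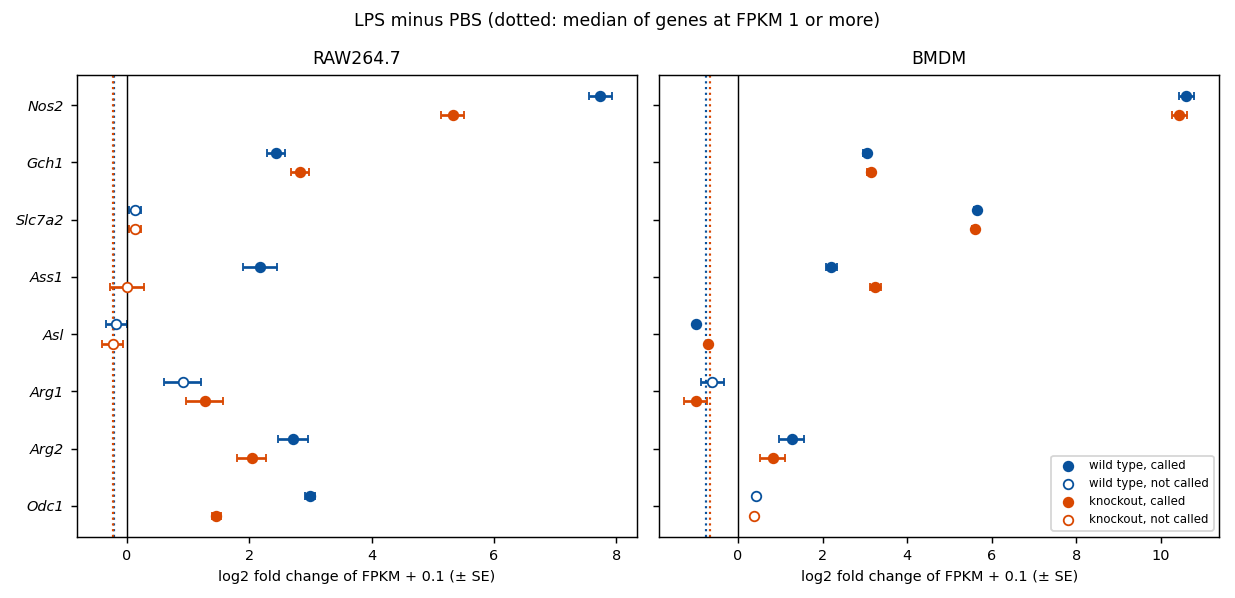
Log2 fold change of FPKM + 0.1 with LPS against PBS (± SE of the limma fit, 3 libraries per group), filled where called, for wild type and the libraries labelled knockout. Dotted lines mark the median of genes at 1 FPKM or more. The *Nos2* changes are 7.74 and 5.33 in RAW264.7 and 10.61 and 10.44 in BMDMs, and those of *Slc7a2* in BMDMs 5.65 and 5.60. The *Slc7a2* points of RAW264.7 rest on 0 and 3 counts and show no measured response.

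The comparison by genotype label asks which of these genes differ between wild type and *Olfml3* knockout. With PBS, *Gch1*, *Arg2*, *Ass1* and *Asl* were lower in the RAW264.7 libraries labelled knockout, 4 of 8, where 3.77% of all genes were called lower, 4.79% higher and 8.55% in either direction. With LPS, *Nos2*, *Odc1*, *Gch1*, *Arg2*, *Ass1* and *Asl* were lower, 6 of 8, where 7.6% of all genes were called lower, 9.73% higher and 17.3% in either direction. The median over the 8 genes was -0.53 with PBS and -1.38 with LPS, beside 0.02 and 0.00 over all genes tested. Rescaling FPKM to a common sum per library (TPM) moved the share of calls to the higher side from 56.0% to 72.5% with PBS and from 56.1% to 75.8% with LPS. Without the RAW264.7 library that stood apart, the same 4 were called with PBS, at log2 fold changes of -1.65 for *Gch1*, -0.71 for *Arg2*, -1.04 for *Ass1* and -0.82 for *Asl*, while the share of all genes called rose to 20.8% in either direction, 8.11% lower and 12.7% higher.

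In BMDMs *Ass1* alone was called with PBS, lower in knockout, where 0.916% of 26973 genes were called lower, 0.901% higher and 1.82% in either direction. With LPS limma called 0 of the 8, as did edgeR and DESeq2, although 3 (*Slc7a2*, *Ass1* and *Asl*) had an unadjusted p under 0.05. *Slc7a2* (limma adjusted p = 0.000637) and *Asl* (limma adjusted p = 0.0481) also passed the adjusted threshold and missed the call on the fold. The background there was 3.23% of genes called higher, 1.53% lower and 4.76% in either direction, and the share to the higher side went from 67.9% to 43.4% with median-ratio scaling. The median over the 8 genes was 0.01 with PBS and 0.02 with LPS, beside 0.01 and 0.04 over all genes.

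Whether the LPS response itself differed between genotypes was tested as an interaction, the log2 response in knockout minus that in wild type. *Nos2*, *Odc1* and *Ass1* responded less in the RAW264.7 libraries labelled knockout, 3 of 8, where 1.95% of all genes were called. With PBS *Nos2* had 2 counts in wild type and 4 in those labelled knockout, and *Ass1* had 12 and 0, so these responses start from few counts. *Ass1* alone was called in BMDMs, with the greater response in knockout, where 2.93% of all genes were called. The share of those BMDM calls to the higher side went from 65.1% to 46.8% with median-ratio scaling. Without the library that stood apart *Arg2* was called in RAW264.7 too (-0.98, limma adjusted p = 0.0417), where 3.41% of all genes were called, and the others stood at -2.52 for *Nos2*, -1.47 for *Odc1* and -2.17 for *Ass1*.

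**Figure D3:**
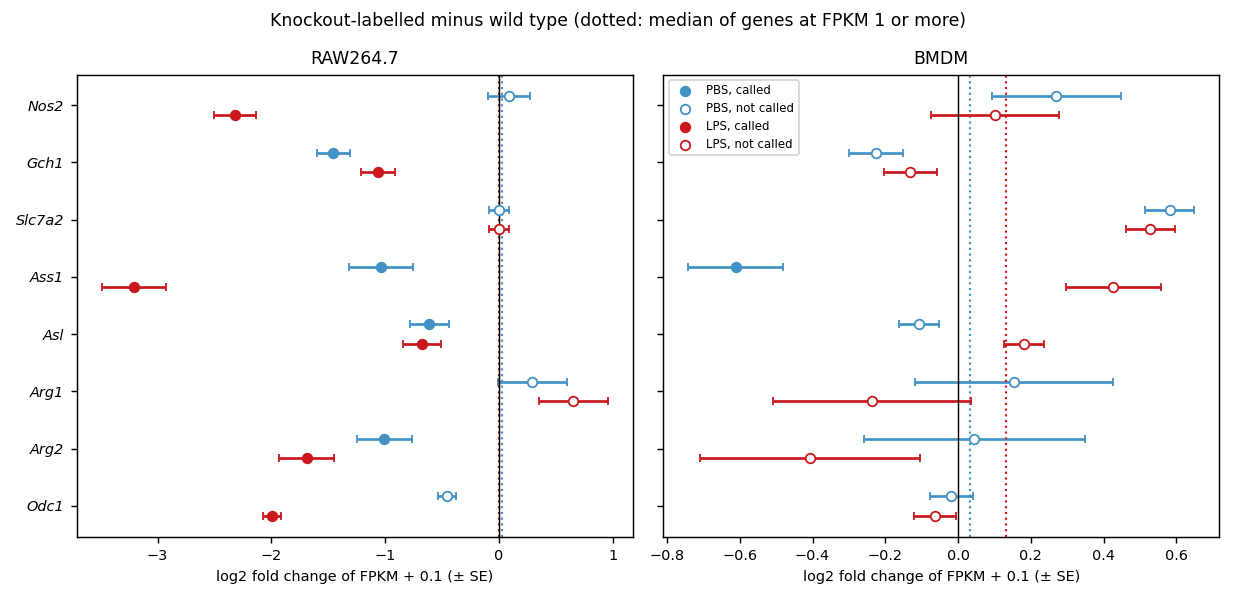
Log2 fold change of FPKM + 0.1, knockout-labelled minus wild type (± SE of the limma fit, 3 libraries per group), with PBS and with LPS, filled where called. In RAW264.7 with LPS 6 of 8 genes lie between -3.21 and -0.68, and in BMDMs all 8 lie between -0.61 and 0.58.

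*Nos2* lies on chromosome 11 at chr11:78920787-78960254 of GRCm38, on the plus strand, and its longest coding transcript has 27 exons. The study lists a primer pair for it, which is shown because it marks the part of the transcript that an RT-qPCR with these primers would read. Capitals mark the bases of the forward primer that lie in exon 3, so that it spans a junction.
Nos2 forward: gttctcagCCCAACAATACAAGA
Nos2 reverse: gtggacgggtcgatgtcac
The forward primer has 8 bases in exon 2, which ends at 78922377, and 15 in exon 3, which starts at 78928574. The reverse primer matches the opposite strand of exon 4 at chr11:78929781-78929799. They enclose 127 bases of transcript, and *Nos2* was the only gene of the annotation that both matched.

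In wild-type RAW264.7 with PBS *Nos2* stood at 0.02, 0.01 and 0 FPKM, and in those labelled knockout at 0, 0 and 0.06, which rest on 2 and 4 counts over 3 libraries. With LPS it stood at 22.7, 23.5 and 23.7 in wild type and at 3.91, 5.28 and 4.69 in those labelled knockout. All wild-type libraries lay above all labelled knockout, by 5.04-fold in mean FPKM, with a log2 fold change of -2.32 (SE 0.18, limma adjusted p = 3.76e-05). The counts behind them were 4342 and 766, whose ratio per counted read was 5.01 (95% interval 4.64 to 5.42, counting error only).

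LPS moved the gene by 7.74 (SE 0.18) in wild-type RAW264.7, place 15 of 26740 from the highest, and by 5.33 in those labelled knockout, place 84. With so few counts at PBS, the ratio of counts was 2207 in wild type with a 95% interval of 611 to 18232, and 242 (94.1 to 890) in those labelled knockout. The interaction was -2.41 (SE 0.26, limma adjusted p = 0.00157). It lost the call with a pseudocount of 0.01, with edgeR and with DESeq2, at adjusted p from 0.142 to 0.537, while the genotype difference with LPS was called under every alternative run.

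In BMDMs *Nos2* rose from 0.04, 0.04 and 0.01 FPKM to 196, 201 and 209 in wild type. In knockout it rose from 0.02, 0.05 and 0.11 to 218, 216 and 215. These were log2 fold changes of 10.61 and 10.44 (SE 0.18), places 2 and 4 of 26973 from the highest. They rest on 9 and 16 counts with PBS: the ratio of counts was 6577 (95% interval 3464 to 14383) in wild type and 3719 (2290 to 6507) in knockout, and the fitted values of *Nos2* ran from 7.62 to 13.49 and from 7.68 to 12.55 over the alternatives. With LPS the knockout libraries lay above the wild-type libraries by 1.07-fold, a log2 fold change of 0.10 (95% interval -0.30 to 0.50, limma adjusted p = 0.843). Its direction turned with median-ratio scaling (-0.06), so no direction is given. The interaction was -0.17 (95% interval -0.73 to 0.39).

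*Gch1*, which supplies the cofactor of this enzyme, lies at chr14:47153895-47189413 on the minus strand. It stood at 2.89, 2.93 and 3.29 FPKM in wild-type RAW264.7 with PBS and at 1.39, 0.94 and 0.86 in those labelled knockout. With LPS the values were 17.2, 16.9 and 16.7 against 8.32, 7.62 and 8.14. At either treatment no library labelled knockout reached the wild-type range, with log2 fold changes of -1.46 (SE 0.15, limma adjusted p = 0.000222) with PBS and -1.06 (SE 0.15, limma adjusted p = 0.00106) with LPS, and both were called under every alternative run. The LPS response was 2.44 in wild type and 2.83 in those labelled knockout, and the interaction of 0.39 was not called (95% interval -0.08 to 0.86). Without the library that stood apart it was 0.58 (limma adjusted p = 0.0139), just under the fold threshold.

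BMDMs held *Gch1* at 2.54, 2.98 and 3.11 FPKM in wild type and 2.58, 2.32 and 2.42 in knockout with PBS. With LPS these became 24.9, 23.7 and 24.4 against 22.1, 22.6 and 21.8. It rose by 3.04 and 3.13 on the log2 scale (SE 0.07), and the genotype difference of -0.13 with LPS was not called (95% interval -0.30 to 0.04). The knockout libraries all lay below wild type with LPS. With median-ratio scaling that difference was -0.29 (limma adjusted p = 0.0324), short of the fold threshold.

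*Slc7a2*, the inducible arginine transporter, at chr8:40862396-40922308 on the plus strand, was at 0 in all 6 RAW264.7 libraries with PBS and at 0 to 0.02 FPKM in the 6 with LPS, with 3 counts per group. *Slc7a2* thus stood near 0 in RAW264.7, and so few counts give no fold or genotype difference there. In wild-type BMDMs it went from 0.62, 0.59 and 0.7 FPKM with PBS to 34.1, 37.9 and 38.7 with LPS. In knockout it went from 1.01, 1.02 and 0.97 to 54.0, 52.3 and 53.4. The LPS response was 58.0-fold in wild type and 53.2-fold in knockout by mean FPKM (log2 fold change 5.65 and 5.60, SE 0.07), places 74 and 95 of 26973 from the highest.

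Every knockout BMDM library had more *Slc7a2* than every wild-type library at the same treatment. The mean was 1.57-fold higher with PBS and 1.44-fold with LPS, with log2 fold changes of 0.58 (SE 0.07, limma adjusted p = 0.00106) and 0.53 (SE 0.07, limma adjusted p = 0.000637). Both had an adjusted p under 0.05 and both fell short of the fold of 1.5 on the scale with the pseudocount. With PBS the gene was called with a pseudocount of 0.01 (0.65), with edgeR (0.61) and with DESeq2 (0.61). It was also called without wild-type PBS replicate 3 (0.64) or knockout PBS replicate 3 (0.60). Relative to the median gene the difference with LPS was 0.40.

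*Ass1* and *Asl* return citrulline to arginine. *Ass1* lies at chr2:31470207-31520672 on the plus strand and *Asl* at chr5:130011258-130029247 on the minus strand. In RAW264.7 *Ass1* was low in wild type, at 0.09, 0.03 and 0.25 FPKM with PBS and 0.91, 0.79 and 0.78 with LPS, and had no count in any of the 6 libraries labelled knockout. Against a floor of 3 counts over the group it was at least 4.39-fold lower in those labelled knockout with PBS and at least 24.4-fold lower with LPS. The wild-type counts were 12 and 83. The fitted values, -1.04 and -3.21, depend on the pseudocount. limma adjusted p was 0.0430 with PBS and 6.61e-05 with LPS, and the call with PBS was lost with a pseudocount of 1, with the replicate number as a block, and without wild-type PBS replicate 1 or the PBS replicates 2 or 3 labelled knockout. The call with LPS was kept in every alternative that could be fitted.

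LPS raised *Ass1* by 2.17 (SE 0.28) in wild-type RAW264.7. With 0 counts at either treatment in those labelled knockout, its interaction of -2.17 is the wild-type response, and it lost the call in 14 of 20 alternatives.

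BMDMs expressed *Ass1* in all libraries. With PBS it stood at 1.71, 1.38 and 1.15 FPKM in wild type and at 0.8, 0.85 and 1 in knockout, and with LPS at 6.43, 7.44 and 6.65 against 9.31, 8.75 and 9.58. The knockout libraries were thus all lower with PBS and all higher with LPS, with log2 fold changes of -0.61 (SE 0.13, limma adjusted p = 0.0315) and 0.43 (SE 0.13, limma adjusted p = 0.0522). With median-ratio scaling the genotype difference with LPS was 0.27 (limma adjusted p = 0.227). The LPS response was 2.21 in wild type and 3.25 in knockout, and the interaction of 1.04 (SE 0.18, limma adjusted p = 0.0109) was called in every alternative run. The call with PBS was lost with a pseudocount of 1 (-0.35) and with the replicate number as a block. It was also lost without wild-type PBS replicate 1 (-0.47) or 2 (-0.62) or knockout PBS replicate 1 (-0.55) or 2 (-0.59).

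*Asl* was nearly level across treatments in RAW264.7, at 7.21, 6.66 and 6.02 FPKM with PBS and 6.45, 5.44 and 5.77 with LPS in wild type. Those labelled knockout had 5.77, 3.55 and 3.86 with PBS and 4, 3.53 and 3.41 with LPS. They lay below wild type at both treatments without overlap, by -0.61 (SE 0.17, limma adjusted p = 0.0469) and -0.68 (SE 0.17, limma adjusted p = 0.0185). Both calls were lost with a pseudocount of 1 and with TPM scaling (-0.43 and -0.45). With PBS the call was also lost with a pseudocount of 0.01 and without any 1 library other than replicate 1 labelled knockout. With LPS it was also lost without wild-type replicate 1 or 3 or replicate 2 or 3 labelled knockout, at -0.69 to -0.61.

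In BMDMs *Asl* went from 7.65, 7.54 and 7.58 FPKM to 3.74, 3.53 and 4.03 with LPS in wild type. In knockout it went from 6.78, 7.14 and 7.2 to 4.23, 4.22 and 4.38. On the deposited scale these were falls of 0.99 and 0.71 on the log2 scale (SE 0.05), and with median-ratio scaling the values were -0.20 and -0.03 and not called. Under that scaling the wild-type value had an adjusted p of 0.0128 by limma, short of the fold threshold, and the knockout value one of 0.795. The knockout libraries with LPS lay above wild type by 0.18 (limma adjusted p = 0.0481), which is under the fold threshold, and by 0.03 with median-ratio scaling.

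*Arg1* was low throughout, and *Arg2* passed a mean of 1 FPKM only in RAW264.7 with LPS. *Arg1* lies at chr10:24915221-24927484 on the minus strand and never exceeded 0.31 FPKM. In RAW264.7 with PBS it stood at 0, 0 and 0.07 FPKM in wild type and 0.05, 0.03 and 0.06 in those labelled knockout. With LPS it stood at 0.04, 0.18 and 0.19 against 0.31, 0.2 and 0.26, which are 13 and 21 counts. The libraries labelled knockout with LPS were above wild type, by 0.65 on the log2 scale (95% interval -0.02 to 1.33), and the difference was not called. The rise with LPS was called in those labelled knockout (1.28, SE 0.30, limma adjusted p = 0.00975), except with pseudocounts of 1 or 0.01. In wild type it was 0.91 (limma adjusted p = 0.0547), and it was called with a pseudocount of 0.01, with median-ratio scaling, and without wild-type PBS replicate 3 or LPS replicate 1.

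In BMDMs *Arg1* had 0.08, 0.06 and 0.14 FPKM in wild type and 0.23, 0.06 and 0.08 in knockout with PBS. With LPS it had 0.04, 0.04 and 0 against 0.02, 0 and 0, from 4 counts and 1 count. It fell in knockout (-0.995, SE 0.27, limma adjusted p = 0.0113), where the ratio of 17 to 1 counts per counted read was 16.9 with a 95% interval of 2.65 to 707. The call was lost with a pseudocount of 1 (-0.16). The wild-type value was -0.61 (limma adjusted p = 0.0960).

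*Arg2*, at chr12:79130777-79156301 on the plus strand, overlaps 2 genes on the opposite strand, and the sources do not say whether counting used the strand. In wild-type RAW264.7 it went from 0.73, 0.61 and 0.85 FPKM with PBS to 6.13, 4.9 and 5.05 with LPS. In those labelled knockout it went from 0.17, 0.48 and 0.34 to 1.68, 1.59 and 1.49. Wild type lay above those labelled knockout at both treatments, by 2.21-fold with PBS and 3.38-fold with LPS, with log2 fold changes of -1.01 (SE 0.24, limma adjusted p = 0.0288) and -1.69 (SE 0.24, limma adjusted p = 0.00134). The call with LPS was kept in every alternative run. That with PBS was lost with a pseudocount of 1 (-0.38), TPM scaling (-0.84) and the replicate block, and without any 1 of the wild-type libraries or replicate 3 labelled knockout.

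LPS raised *Arg2* in RAW264.7 by 2.72 in wild type and 2.04 in those labelled knockout (SE 0.24). In BMDMs the rise was smaller, from 0.35, 0.35 and 0.29 FPKM to 0.87, 1.15 and 0.81 in wild type and from 0.16, 0.58 and 0.39 to 0.81, 0.55 and 0.7 in knockout. The libraries of the knockout groups overlapped, and its log2 fold change of 0.82 (SE 0.30, limma adjusted p = 0.0479) lost the call in 9 of 14 alternatives. That of wild type was 1.27 (SE 0.30, limma adjusted p = 0.00516), which lost it with a pseudocount of 1. Genotypes did not separate for *Arg2* in BMDMs, with -0.41 with LPS (95% interval -1.09 to 0.27).

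*Odc1*, at chr12:17544794-17551505 on the plus strand, opens the polyamine branch. Wild-type RAW264.7 had 88.5, 85.85 and 84.3 FPKM with PBS and 709, 692 and 668 with LPS. Those labelled knockout had 68.85, 61.5 and 58.3 with PBS and 177, 168 and 175 with LPS. The groups did not overlap at either treatment. With LPS those labelled knockout were 3.98-fold lower, a log2 fold change of -1.99 (SE 0.08, limma adjusted p = 4.65e-07). With PBS the difference was 1.37-fold, -0.46 (SE 0.08, limma adjusted p = 0.00579), which is under the fold threshold. The LPS response was 8.0-fold in wild type and 2.76-fold in those labelled knockout, and the interaction of -1.53 (SE 0.11, limma adjusted p = 0.000171) was called in every alternative run, with values from -1.59 to -1.47.

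BMDMs had 36.0, 38.0 and 36.6 FPKM of *Odc1* in wild type and 35.7, 39.0 and 34.6 in knockout with PBS, and 52.7, 47.7 and 49.3 against 47.0, 47.6 and 48.5 with LPS. All libraries with LPS lay above those with PBS. The response of 0.43 in wild type and 0.39 in knockout had an adjusted p of 0.000108 and 0.000252 by limma and stayed under the fold threshold. It was called with median-ratio scaling, edgeR and DESeq2, at 1.00 to 1.24. The genotypes overlapped at both treatments.

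RefSeq promoters of GRCm38.p6 were in the table for 3 of the 8 genes, *Ass1*, *Gch1* and *Odc1*, which all rose with LPS in wild-type RAW264.7. They are shown as the bases before the annotated gene start, in the sense of the gene, because these genes moved together there. Capitals mark matches on either strand to kappaB (GGGNNNNNCC, with N for any base), the TATA box (TATAA) and the core of the cAMP response element (TGACG), and overlapping matches are joined.
Ass1, chr2:31470020-31470206, plus: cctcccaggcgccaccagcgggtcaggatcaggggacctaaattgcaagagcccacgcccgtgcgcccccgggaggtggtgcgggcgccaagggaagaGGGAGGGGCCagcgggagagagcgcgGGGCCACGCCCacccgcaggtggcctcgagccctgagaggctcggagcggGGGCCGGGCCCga
Gch1, chr14:47189414-47189663, minus: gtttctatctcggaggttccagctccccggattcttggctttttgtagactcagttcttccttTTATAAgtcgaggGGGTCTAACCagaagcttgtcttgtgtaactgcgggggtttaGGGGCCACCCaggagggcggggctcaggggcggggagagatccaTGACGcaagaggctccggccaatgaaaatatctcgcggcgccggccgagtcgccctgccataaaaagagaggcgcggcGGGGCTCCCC
Odc1, chr12:17544623-17544793, plus: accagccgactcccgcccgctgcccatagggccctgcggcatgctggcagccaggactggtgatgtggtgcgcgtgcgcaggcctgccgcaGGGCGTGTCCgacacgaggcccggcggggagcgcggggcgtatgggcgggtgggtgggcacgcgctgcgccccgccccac
The kappaB pattern matched 5 times in *Ass1*, with overlaps, where 34.6% of 32851 promoters cut to the same 187 bases hold at least 1 match. It matched 3 times in *Gch1* (45.8% at 250 bases) and once in *Odc1* (31.6% at 171 bases). *Gch1* also held 2 overlapping TATA box matches (22.8%) and 1 core of the cAMP response element (17.8%). The TATA box matches are the same site read on both strands, and it lies toward the end of the window away from the gene start. The patterns of GAS (TTCNNNGAA), the interferon response core, C/EBP (TTGCNNAA) and the E-box (CACGTG) had no match in these windows. The windows of *Ass1* and *Odc1* held 75.4% and 77.2% G and C bases, and that of *Gch1* 59.2%.

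The balance of *Nos2* and *Arg1* was taken within each library as log2 of (*Nos2* + 0.1) over (*Arg1* + 0.1). In RAW264.7 it was 0.26, 0.14 and -0.77 in wild type and -0.58, -0.38 and 0 in those labelled knockout with PBS. With LPS it was 7.35, 6.39 and 6.36 against 3.29, 4.16 and 3.73. Those labelled knockout lay below wild type with LPS without overlap, with a difference of -2.97 (exact permutation test, two-sided, p = 0.1, adjusted 0.16 over 8 comparisons), and 0.1 is the smallest p that 3 libraries against 3 allow. In BMDMs with LPS the ratio was 10.45, 10.49 and 11.03 in wild type and 10.83, 11.07 and 11.07 in knockout, which overlapped (difference 0.34, exact permutation p = 0.2). With LPS the ratio lay above that with PBS in all 4 pairs of groups without overlap, by 4.05 to 11.44, each at p = 0.1 by the exact permutation test. *Arg1* stood at 0 to 0.04 FPKM in BMDMs with LPS, so the size of the ratio there rests largely on the 0.1 added. With PBS both genes stood at or below 0.23 FPKM in every library, so the size of these shifts depends on it too.

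*Arg1* made up 0.648%, 3.54% and 3.63% of arginase FPKM in wild-type RAW264.7 with LPS and 15.6%, 11.2% and 14.9% in those labelled knockout. These did not overlap, with a difference of 11.3 percentage points (exact permutation p = 0.1, adjusted 0.267 over 8 comparisons). With PBS the shares overlapped, at 0 to 7.61% and 5.88% to 22.7%. In wild-type BMDMs the share was between 14.6% and 32.6% with PBS and between 0 and 4.40% with LPS. In knockout BMDMs it was between 9.38% and 59.0% with PBS and between 0 and 2.41% with LPS. Neither pair overlapped (exact permutation p = 0.1 each), and all rest on few counts of *Arg1*.

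**Figure D4:**
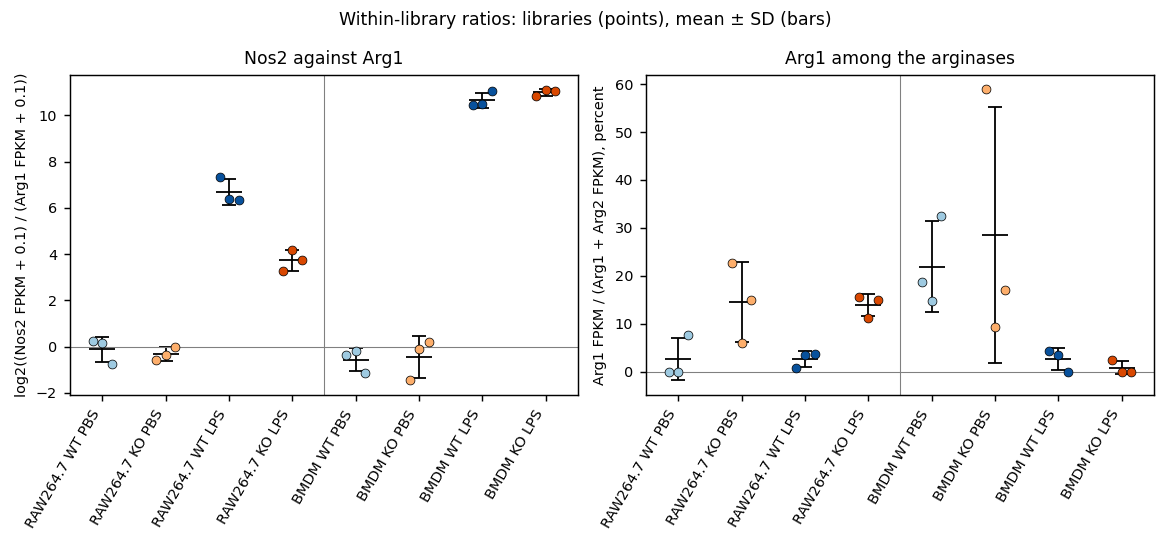
Log2 ratio of *Nos2* to *Arg1* (left) and *Arg1* as percent of arginase FPKM (right) in each library, with the group mean, 3 libraries per group. With LPS the ratio averages 6.70 in wild-type RAW264.7 and 3.73 in those labelled knockout, and 10.66 and 10.99 in BMDMs. In BMDMs with LPS *Arg1* lies below the 0.1 FPKM added to each gene.

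Genes with the pattern most like each of 4 members were taken by the lower of 2 Pearson correlations of log2(FPKM + 0.1), over 12 RAW264.7 and over 12 BMDM libraries, among 10356 genes. The libraries share the LPS step and the difference by genotype label, so these coefficients are descriptions. Nearest to *Nos2* were *Lyn* (0.995), *Il33* (0.994), *Zfp36* (0.992), *Enpp4* (0.991) and *Fpr2* (0.990). *Gch1* had *Usb1* (0.995), *Il1rn* (0.993) and *Srgn* (0.993) beside it. The nearest to *Odc1* were *Myd88* (0.975), *Rnf19b* (0.972) and *Snx10* (0.969), and to *Asl* were *Cdipt* (0.975), *Sec11a* (0.971) and *Eif4h* (0.970).

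The rest of the pathway was read from a list of 45 other genes of arginine transport, nitric oxide, tetrahydrobiopterin, the ornithine and urea cycle, polyamines and proline, chosen with earlier results of these data known, of which 41 could be tested in RAW264.7 and 42 in BMDMs. In the RAW264.7 libraries labelled knockout, 1 was higher and 7 lower with PBS, and 3 were higher and 10 lower with LPS. Of all genes, 4.79% were higher and 3.77% lower with PBS, and 9.73% and 7.6% with LPS. Among genes at 1 FPKM or more in at least 3 libraries, these shares were 11.6% and 7.87% with PBS, and 16.5% and 14.6% with LPS. The list's median was -0.26 and -0.19, beside 0.02 and 0.00 over all genes tested. With TPM scaling the counts were 1 and 4 with PBS and 5 and 6 with LPS, and without the library that stood apart 2 and 13 with PBS, where the shares of all genes were 12.7% and 8.11%. In BMDMs 1 was higher with PBS and 1 with LPS (*Aldh18a1* in both, named after its values were seen), and none were with median-ratio scaling or edgeR. limma called none lower there, while 11 and 18 of the list had an unadjusted p under 0.05.

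Of the 6 genes of tetrahydrobiopterin, 3 were lower and 1 higher in those labelled knockout with PBS, and 3 were lower with LPS. Without the library that stood apart 4 were lower and 1 higher with PBS. Sepiapterin reductase (*Spr*), which makes the last step of the cofactor, stood at -0.65 with PBS and -0.84 with LPS on the log2 scale. Dihydropteridine reductase (*Qdpr*), which recycles the cofactor, stood at -0.60 and -0.91. The gene that was higher with PBS was *Pts* (0.64), whose enzyme acts between GTP cyclohydrolase and *Spr*. *Gchfr*, the feedback regulator of GTP cyclohydrolase, was chosen after its values were seen: it stood at -2.38 with PBS and -2.98 with LPS, with mean FPKM of 7.47 and 3.95 in wild type against 1.48 and 0.597 in those labelled knockout. With TPM scaling none of the 6 was lower with PBS and the same number, 3, with LPS.

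Other genes of the list were lower too in the RAW264.7 libraries labelled knockout. The arginine exporter subunit *Slc7a7* differed by -1.98 with PBS and -1.07 with LPS, while the constitutive importer *Slc7a1* was higher with LPS (0.82). Guanidinoacetate methyltransferase (*Gamt*), of creatine synthesis from arginine, stood at -1.11 and -1.38. *Ddah2*, which clears methylarginines that inhibit nitric oxide synthases, stood at -1.43 with LPS, and spermine oxidase (*Smox*) at -0.75. *Smox* was the single gene of the list with a called interaction (-0.81): its LPS rise was 1.73 in wild type and 0.92 in those labelled knockout.

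With LPS 3 of the list were higher and 9 lower in wild-type RAW264.7, and 5 and 8 in those labelled knockout (4 and 7 without the library that stood apart), where 5.8% and 12.5%, and 7.45% and 14.6%, of all genes were called. Among genes at 1 FPKM or more in at least 3 libraries, these shares were 10.0% and 23.8% in wild type. In those labelled knockout they were 12.1% and 27.3%. With median-ratio scaling the list counts were 6 and 6, and 7 and 6. In BMDMs LPS left 1 higher and 22 lower in wild type and 1 and 20 in knockout, where 7.94% and 32.5%, and 8.02% and 30.9%, of all genes were called, with list medians of -0.62 and -0.57 beside -0.30 and -0.28 over all genes. Among genes at 1 FPKM or more in at least 3 libraries, 13.0% were called higher and 56.4% lower in wild type. In knockout these shares were 13.4% and 52.2%, and the medians of such genes were -0.76 and -0.65. For the list, median-ratio scaling gave 6 higher and 11 lower, and 5 and 11. *Slc7a7* was the gene called higher in both BMDM genotypes (1.04 and 1.41). *Paox*, a polyamine oxidase (-2.58 and -2.71), *Amd1*, which supplies the aminopropyl donor for spermidine (-2.52 and -2.09), *Pycrl* of proline synthesis (-1.89 and -1.72) and *Aldh4a1* of proline breakdown (-1.80 and -1.82) fell in both, and were still called lower with median-ratio scaling. Also called lower under both scalings in BMDMs were *Spr* (-1.45 and -1.49), *Slc7a6* (-1.71 and -1.53) and *Nostrin*, a regulator of endothelial nitric oxide synthase (-1.66 and -1.77).

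**Figure D5:**
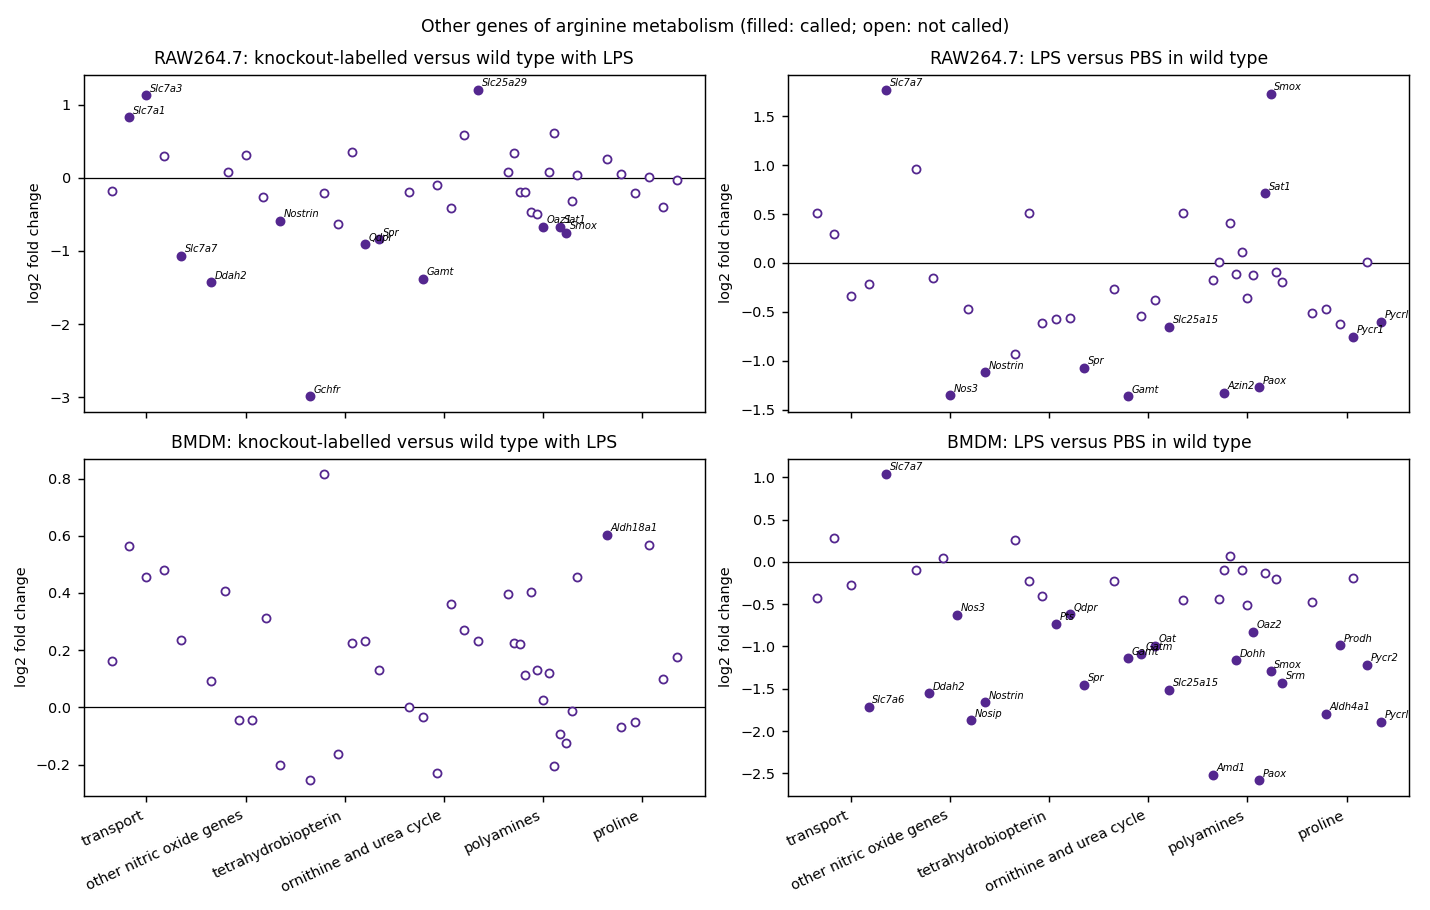
Log2 fold changes of FPKM + 0.1 for the tested genes of the pathway list, knockout-labelled against wild type with LPS and LPS against PBS in wild type, in both cell types, with called genes filled. In RAW264.7 with LPS 10 of 41 genes are called lower and 3 higher by label, and in BMDMs 0 of 42 lower and 1 higher.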

How the data were processed

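RNA-seq of 24 libraries was analysed. For each cell type the authors deposited a single table that holds raw read counts and FPKM. FPKM recomputed from those counts, gene length and library total lay within 1 percent for 99.9% of RAW264.7 and 99.5% of BMDM values over 50 counts. The labels name mm10. The labels and methods were searched for an aligner and a counting program, neither of which they name (not given in the sources used here). Printed coordinates are those of GRCm38 with GENCODE M21, since coordinates in the deposited tables differ from that build. Tests were made only within a table, and values of RAW264.7 and BMDMs stand side by side untested.

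limma 3.58.1 (R 4.3.3) fitted 4 group means over 12 libraries per cell type to log2(FPKM + 0.1), for all genes above 0 in at least 1 library (26740 in RAW264.7, 26973 in BMDMs). The tool and both thresholds, 0.05 for the adjusted p and 1.5 for the fold, follow the study. The fold understates changes of low genes. p-values were adjusted by Benjamini-Hochberg over the whole table. Ratios within a library were compared by exact permutation with Python 3.11.15, scipy 1.17.1 and pandas 2.3.3. Figures used matplotlib 3.10.9. Intervals of count ratios are exact 95% binomial intervals. The scripts were tested on simulated data.

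Alternatives were pseudocounts of 1 and 0.01, a filter of FPKM 1 in 3 libraries, TPM and median-ratio scaling, edgeR 4.0.16 and DESeq2 1.42.0 on the deposited counts, a replicate block and each library left out. For the pathway list the scalings, edgeR and the omission of 1 library were added after seeing the data. Members and lists were chosen with earlier results of these data known. Named genes are the 8 members, up to 3 genes per group of the list, those called in most comparisons, and the genes nearest to a member. The study calls the libraries of a group biological replicates without saying whether cultures or mice were separate, so p-values measure the spread between these libraries, which may be technical. 1 gene of the pathway list is not reported here. Replicate numbers did not pair the libraries. Depth limits genes under 0.1 FPKM to few counts.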

Additional observations from a re-analysis of the deposited data

Results flagged for a closer look

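The LPS response differed between genotypes, by the interaction term of the limma fit, for 4 gene and cell type pairs. It was smaller in the RAW264.7 libraries labelled knockout for *Nos2* (-2.41), *Ass1* (-2.17) and *Odc1* (-1.53), and greater in knockout BMDMs for *Ass1* (1.04). *Odc1* and the BMDM value of *Ass1* were called in every alternative run. *Nos2*, which rested on 2 and 4 counts with PBS, lost the call with a pseudocount of 0.01, edgeR and DESeq2. *Ass1* in RAW264.7, which had 0 counts in all libraries labelled knockout, lost it in 14 of 20 alternatives.

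Some fitted values had opposite signs in RAW264.7 and BMDMs, with the libraries of the groups compared apart in both cell types, and these differences between cell types were not tested. With LPS the genotype difference was -2.32 in RAW264.7 and 0.10 in BMDMs for *Nos2*, -3.21 and 0.43 for *Ass1*, and -0.68 and 0.18 for *Asl*. None of these 3 BMDM values was called. Relative to the median gene that of *Nos2* was -0.03, that of *Ass1* 0.29 and that of *Asl* 0.05, so no direction is given for *Nos2*. *Arg1* changed with LPS by 1.28 in the RAW264.7 libraries labelled knockout and by -0.995 in knockout BMDMs, on 21 and 5 counts and on 1 and 17.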

How the results depend on the processing

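No called value changed its direction under the alternatives run. In RAW264.7 with PBS, 4 members were called between genotypes, 1 with a pseudocount of 1, 2 with TPM scaling, 2 with the replicate block and 1 to 4 with 1 library left out. *Gch1* was called throughout. Of the 3 RAW264.7 interactions, 1 was called with a pseudocount of 0.01, with edgeR with and without its filter and with DESeq2, which was *Odc1*, and 2 to 4 with 1 library left out. In BMDMs with PBS, 1 was called between genotypes, 0 with a pseudocount of 1 and with the replicate block, 2 with a pseudocount of 0.01, edgeR with and without its filter and DESeq2, and 0 to 2 with 1 library left out. The cause was not tested. Counts in the other 7 comparisons stayed within 1.5 times. The replicate numbers did not pair libraries (correlations of same-numbered deviations from -0.06 to 0.08). Of 252 values of called genes with 1 library left out, 218 kept the call and 34 lost it. Values of *Arg1*, of *Nos2* with PBS and of *Slc7a2* in RAW264.7 rest on so few counts that depth limits them.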
